A study of Arabidopsis thaliana with 18 samples.

Results

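Cytochrome P450 genes were read out of the transcriptome of Arabidopsis thaliana seedlings kept warm for days and returned from the heat. A gene was taken as a member when its identifier lay on a nuclear chromosome and its deposited description held the words cytochrome P450, leaving out 11 listed identifiers. This gave 237 of the 37916 genes in the table, and 221 of them carry a CYP number in one of 41 families. Of the 237, 230 hold a P450 domain by the Pfam column of the same table, and 7 do not. Another 10 genes with the domain but other descriptions, among them cinnamate 4-hydroxylase and ferulate 5-hydroxylase of lignin synthesis, are not members.

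The libraries held oligo-dT selected RNA of seedlings grown on MS medium with sucrose. The groups were prmt5 (an insertion in PRMT5, a protein arginine methyltransferase) and wild type (WT), each at 22 °C, after 3 days at 37 °C and sampled at once (called heat), or 24 h after that heat (called recovery), with 3 libraries per group. The question was how the response of seedlings to long heat, and to its end, depends on PRMT5. The temperature of recovery, the age of the plants, the position of the insertion and the number of mutant lines are not given in the sources used here. The labels do not say that libraries came from separately grown plants, so the p-values speak for the scatter among these libraries alone, and that scatter could be technical. Values are TPM (each library's transcripts as shares, corrected for gene length), which keep no sequencing depth, so depth is unknown and no counting intervals are given.

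PRMT5 itself had 2.32 to 8.87 TPM in the 9 prmt5 libraries and 25.28 to 47.72 TPM in the 9 WT libraries. Averaged over the 3 conditions the difference was -32.74 TPM, with a two-sided exact permutation p of 0.00025 (n = 9 each), the smallest that 8000 arrangements can give. The labelled tissue was checked with marker lists. The summed level of 5 leaf markers was 28520 to 33980 TPM in prmt5 and 27190 to 31100 TPM in WT at 22 °C, 1881 to 2131 and 2004 to 4124 TPM at heat, and 837.9 to 1747 and 3585 to 6991 TPM at recovery. The 20 root markers summed to 84.72 to 114.9 TPM in prmt5 and 57.33 to 150.3 TPM in WT at 22 °C, 40.57 to 59.73 and 42.56 to 55.27 TPM at heat, and 74.79 to 86.05 and 97.66 to 155.3 TPM at recovery. Flower and anther markers summed to at most 9.4 TPM and seed markers to at most 41.29 TPM. Leaf and root markers were both present in every library. Flower markers were low and highest at recovery, with sums of 5.94 to 9.4 TPM in prmt5 and 5.29 to 7.01 TPM in WT. Among them AP3 averaged 6.09 TPM in prmt5 and 4.96 TPM in WT at recovery, against 0.15 and 0.14 TPM at 22 °C. Several libraries differed from their companions. WT library 3 at 22 °C had the lowest root sum, 57.33 TPM against 125.1 and 150.3 TPM in its 2 companions, and prmt5 library 3 at recovery had the lowest level of several recovery genes named below. The leaf sum was 4124 TPM in WT library 1 at heat, against 2368 and 2004 TPM in its companions, and 6991 TPM in WT library 3 at recovery, against 4079 and 3585 TPM. The seed sum was 41.29 TPM in WT library 2 at heat, against 14.11 and 8.54 TPM. In these bulk samples, fewer cells of a type and less RNA per cell cannot be told apart.

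Cytochrome P450 enzymes are haem proteins, most of them anchored in the endoplasmic reticulum, that use oxygen and electrons from a reductase to hydroxylate or otherwise oxidise small molecules. Plants carry large sets of such genes. Different families make or break down hormones, build sterols, carotenoids, lignin, cutin and suberin, form defence compounds such as glucosinolates and terpenoids, or act on foreign chemicals. Many of the genes lie next to close relatives that arose by tandem duplication.

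The transcripts of the 237 members together were most abundant in recovering prmt5 seedlings. P450 genes that are not members, among them cinnamate 4-hydroxylase (mean 362 TPM) and CYP79B2 (mean 257 TPM), are not in this sum. Summed over the 237 genes, the level was 2464, 2036 and 2240 TPM in prmt5 and 2492, 2531 and 2062 TPM in WT at 22 °C. At heat it was 2460, 2257 and 2312 TPM in prmt5 and 2692, 2726 and 2779 TPM in WT. At recovery it was 6297, 6624 and 5878 TPM in prmt5 and 3589, 3574 and 3974 TPM in WT. As deposited, the 3 prmt5 recovery libraries lay above all 15 others, and the 3 WT recovery libraries came next. As deposited, the genotypes overlapped at 22 °C, and at heat every prmt5 library lay below every WT library. The order at heat followed the scaling. Median-ratio factors, by which libraries are divided, were 0.95, 0.86 and 0.90 in prmt5 and 1.18, 1.16 and 1.21 in WT at heat. Divided by these, every prmt5 sum at heat lies above every WT sum. Library 1 of prmt5 at 22 °C (factor 0.73) then passes WT libraries 1 and 2 at recovery (1.165 and 1.186). The prmt5 recovery libraries stay highest.

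**Figure D1:**
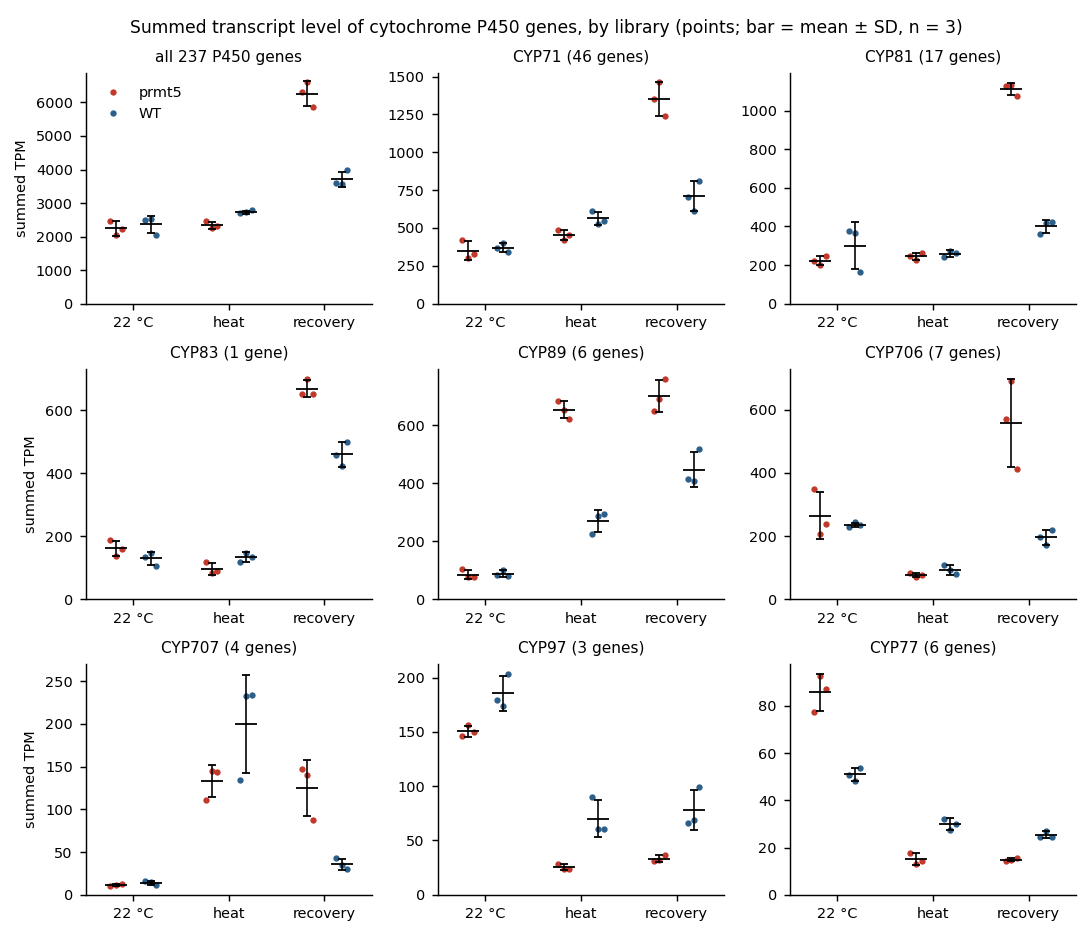
Summed TPM per library of all 237 P450 genes and of 8 families (y axes, each starting at 0) at 22 °C, heat and recovery, with prmt5 in red to the left of WT in blue; points are libraries and bars the mean ± SD (n = 3). The total of prmt5 at recovery, 5878 to 6624 TPM, lies above that of every other library, CYP89 genes are high in prmt5 at heat as well, and CYP97 and CYP77 genes are highest at 22 °C.

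Several families had a higher summed level in prmt5 than in WT at recovery. CYP71 genes (46 members) summed to 1351 ± 112 TPM in prmt5 and 709 ± 97.8 TPM in WT at recovery (SD, n = 3), and CYP81 genes (17 members) to 1112 ± 32.8 and 402 ± 34.1 TPM. CYP89 genes (6 members) gave 700.2 ± 55.6 and 446 ± 60.8 TPM, and CYP706 genes (7 members) 558 ± 140.0 and 196 ± 23.9 TPM. Such sums can rest on few genes: CYP71B6 alone averaged 535 TPM in prmt5 and 90.4 TPM in WT at recovery. By the tests below, 12 of 29 CYP71 genes were higher in prmt5 at recovery and 7 lower. For CYP81 it was 7 and 2 of 13, for CYP89 4 and 0 of 5, and for CYP706 2 and 1 of 6. Over all tested genes 27.8% were higher and 31.9% lower. The most abundant member over all 18 libraries was CYP83B1, with a mean of 275 TPM, an enzyme of indole glucosinolate synthesis. It was followed by CYP89A5 (177 TPM), CYP89A2 (146 TPM), CYP706A1 (129.5 TPM) and CYP71B6 (124 TPM), which acts on indole-3-acetonitrile.

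Tests ran on log2(TPM + 1) over the 21831 genes with a mean of at least 1 TPM, and 150 P450 genes were among them. The other 87 stayed below, 3 of them at 0 in all 18 libraries (CYP702A8, CYP71B38 and AT4G12334), and were not tested. Those not tested include both listed genes of sporopollenin, the pollen wall polymer, and the 3 gibberellin-deactivating genes CYP714A1, CYP714A2 and CYP72A9. Log2 changes are differences on the log2(TPM + 1) scale, given ± SE, which understate the change of genes at low levels, and adjusted p-values come from limma over all tested genes. The heat and recovery comparisons of a genotype share its 22 °C libraries.

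After 3 days at 37 °C, a small set of P450 genes had become strongly expressed in both genotypes, while most P450 genes that changed in prmt5 had fallen. In prmt5, 39 of the 150 tested genes rose and 82 fell at heat against 22 °C, and 29 did not pass. In WT, 61 rose, 45 fell and 44 did not pass. Of all tested genes, 45.5% rose and 36.0% fell in prmt5 (81.5% were called), and 49.8% rose and 25.7% fell in WT (75.5% were called). The libraries of heat and 22 °C did not overlap in 80.3% of all tested genes in prmt5 and 78.8% in WT. The members' median log2 change was -0.58 in prmt5 and 0.24 in WT, against 0.19 and 0.35 over all tested genes. In WT the split between rising and falling members followed the scaling: with median-ratio scaling 44 rose and 61 fell, and with quantile normalization 43 and 68. Both scalings move the median of all genes in WT to 0.01, and in prmt5 to 0.06 and 0.08. Taking the genotypes together, 32 members (21.3%) rose in both, 43 (28.7%) fell in both, and 14 (9.33%) fell in prmt5 and rose in WT, against 39.4%, 23.0% and 3.16% of all tested genes.

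The genes among the 6 largest rises at heat in both genotypes were CYP707A4, CYP71B19 and CYP81G1. CYP707A4, a hydroxylase that starts the breakdown of abscisic acid, had 107, 142 and 141 TPM at heat in prmt5, against 0.83, 2.17 and 2.43 TPM at 22 °C. In WT it had 128, 226 and 227 TPM at heat, against 2.06, 1.49 and 2.89 TPM at 22 °C. All heat libraries lay above all 22 °C libraries, and the log2 changes were 5.58 ± 0.27 in prmt5 and 5.93 ± 0.27 in WT (adjusted p = 2.1e-11 and 2.2e-11). CYP71B19, a gene of the large CYP71B subfamily, had 214, 199 and 198 TPM at heat in prmt5, against 4.25, 2.39 and 1.38 TPM at 22 °C. In WT it had 125, 127 and 118 TPM at heat, against 1.49, 2.32 and 1.02 TPM at 22 °C. The groups were again far apart, with log2 changes of 5.87 ± 0.24 in prmt5 and 5.60 ± 0.24 in WT (adjusted p = 3.8e-12 and 1.4e-11). CYP81G1 had 30.3, 27.9 and 37.7 TPM at heat in prmt5, against 0, 0.03 and 0 TPM at 22 °C. It had 14.0, 26.2 and 28.6 TPM at heat in WT and was listed at 0 in all 3 WT libraries at 22 °C, so no fold is given (adjusted p = 3.3e-12 in prmt5 and 2.3e-11 in WT). A gene at 0 or 0.03 TPM in the 6 libraries at 22 °C thus had at least 13.98 TPM in all 6 heat libraries. The difference between the genotypes' heat responses did not pass for any of the 3 (adjusted p = 0.47, 0.54 and 0.17).

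The 250 bases before the annotated starts of these 3 genes are shown, together with those of 3 further members that are near-identical copies discussed below, because copies with like transcripts differed in their heat response. Sequences are from RefSeq on TAIR10.1, 5′ to 3′ on the strand of the gene, with chromosome position in 1-based coordinates. Capitals mark GAANNTTC and TTCNNGAA, the paired units of heat shock elements in both orders, and TGACG, the core bound by TGA factors, each searched on both strands.
CYP707A4 (AT3G19270), TAIR10.1 chr3:6676522-6676771, minus strand: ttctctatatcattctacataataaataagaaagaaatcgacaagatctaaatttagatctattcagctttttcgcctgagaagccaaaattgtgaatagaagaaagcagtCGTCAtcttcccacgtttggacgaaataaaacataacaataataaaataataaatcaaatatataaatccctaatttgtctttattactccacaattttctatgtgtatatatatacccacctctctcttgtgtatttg
CYP71B19 (AT3G26170), TAIR10.1 chr3:9575216-9575465, minus strand: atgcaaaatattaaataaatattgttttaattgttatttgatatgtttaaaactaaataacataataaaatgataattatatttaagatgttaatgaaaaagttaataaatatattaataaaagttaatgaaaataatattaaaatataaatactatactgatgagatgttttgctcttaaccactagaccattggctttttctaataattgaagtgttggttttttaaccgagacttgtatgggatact
CYP81G1 (AT5G67310), TAIR10.1 chr5:26857087-26857336, minus strand: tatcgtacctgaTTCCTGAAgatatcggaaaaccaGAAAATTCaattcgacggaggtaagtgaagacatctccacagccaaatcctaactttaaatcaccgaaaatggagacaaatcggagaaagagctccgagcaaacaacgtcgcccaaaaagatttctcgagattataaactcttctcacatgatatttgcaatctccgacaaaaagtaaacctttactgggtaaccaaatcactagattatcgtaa
CYP71B20 (AT3G26180), TAIR10.1 chr3:9580114-9580363, minus strand: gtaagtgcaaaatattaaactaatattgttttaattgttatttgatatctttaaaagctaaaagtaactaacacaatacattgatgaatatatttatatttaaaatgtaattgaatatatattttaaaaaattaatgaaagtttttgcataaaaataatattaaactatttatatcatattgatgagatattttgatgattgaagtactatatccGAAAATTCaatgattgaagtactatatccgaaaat
CYP706A1 (AT4G22690), TAIR10.1 chr4:11929109-11929358, plus strand: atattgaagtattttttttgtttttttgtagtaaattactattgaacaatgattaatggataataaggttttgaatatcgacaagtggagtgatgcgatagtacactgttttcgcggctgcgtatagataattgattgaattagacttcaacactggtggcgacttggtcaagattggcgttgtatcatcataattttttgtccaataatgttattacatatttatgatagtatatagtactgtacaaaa
CYP706A2 (AT4G22710), TAIR10.1 chr4:11934719-11934968, plus strand: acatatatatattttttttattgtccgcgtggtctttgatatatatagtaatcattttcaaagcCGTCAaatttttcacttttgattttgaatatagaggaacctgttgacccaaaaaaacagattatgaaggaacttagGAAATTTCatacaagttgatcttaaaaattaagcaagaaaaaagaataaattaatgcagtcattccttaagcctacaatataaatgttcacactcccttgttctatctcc
CYP81G1 held 2 of these motifs, 238 to 231 bases (TTCNNGAA) and 215 to 208 bases (GAANNTTC) upstream of the start. CYP707A4 held 1 TGACG match, 139 to 135 bases upstream, and CYP71B19 held none of the 3 motifs in this window. Over the whole family GAANNTTC or TTCNNGAA was found before 16.5% of the 237 members, 15.6% of the 32 members that rose at heat in both genotypes, and 16.1% of 27443 protein-coding genes. TGACG was found before 16.9% of members, 25.0% of the 60 that rose at recovery in both genotypes, and 18.6% of all genes. These shares are descriptions and say nothing on binding.

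Other genes that rose at heat in both genotypes include CYP71B10, CYP81D8 and CYP89A9. CYP81D8, a gene known to respond to foreign chemicals and oxidative stress, had 47.4, 46.7 and 79.0 TPM at heat in prmt5, against 2.55, 1.44 and 2.58 TPM at 22 °C. In WT it had 20.5, 20.7 and 21.6 TPM at heat, against 1.87, 2.00 and 1.54 TPM at 22 °C. It rose in both, with log2 changes of 4.18 ± 0.24 in prmt5 and 2.97 ± 0.24 in WT. CYP89A9, which oxidises chlorophyll breakdown products, rose by 3.09 in prmt5 and 2.80 in WT on the log2 scale. CYP71B10 reached 9.76 ± 0.525 TPM in prmt5 and 10.1 ± 2.57 TPM in WT at heat, against 0.0367 ± 0.0404 and 0.223 ± 0.16 TPM at 22 °C (SD, n = 3).

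Among the genes that fell at heat in both genotypes were CYP706A6, CYP81F4, CYP708A2 and CYP77B1. CYP77B1 had 1.72, 0.39 and 1.05 TPM at heat in prmt5, against 45.9, 65.7 and 62.1 TPM at 22 °C. In WT it had 7.18, 3.42 and 6.34 TPM at heat, against 27.7, 25.6 and 27.7 TPM at 22 °C. The fall was -4.88 ± 0.29 in prmt5 and -2.12 ± 0.29 in WT on the log2 scale, and the groups did not overlap in either genotype. CYP706A6 had 5.08, 1.89 and 2.11 TPM at heat in prmt5, against 91.7, 53.3 and 58.5 TPM at 22 °C, and fell in WT too (-2.26 ± 0.42, adjusted p = 0.00013). CYP708A2, which acts on thalianol in the root triterpene cluster, had 0.29, 0.26 and 0.09 TPM at heat in prmt5, against 17.9, 8.74 and 11.3 TPM at 22 °C. In WT it had 0.17, 1.36 and 0.83 TPM at heat, against 20.6, 16.8 and 3.37 TPM at 22 °C, and it fell in both (log2 -3.44 in prmt5 and -2.79 in WT).

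**Figure D2:**
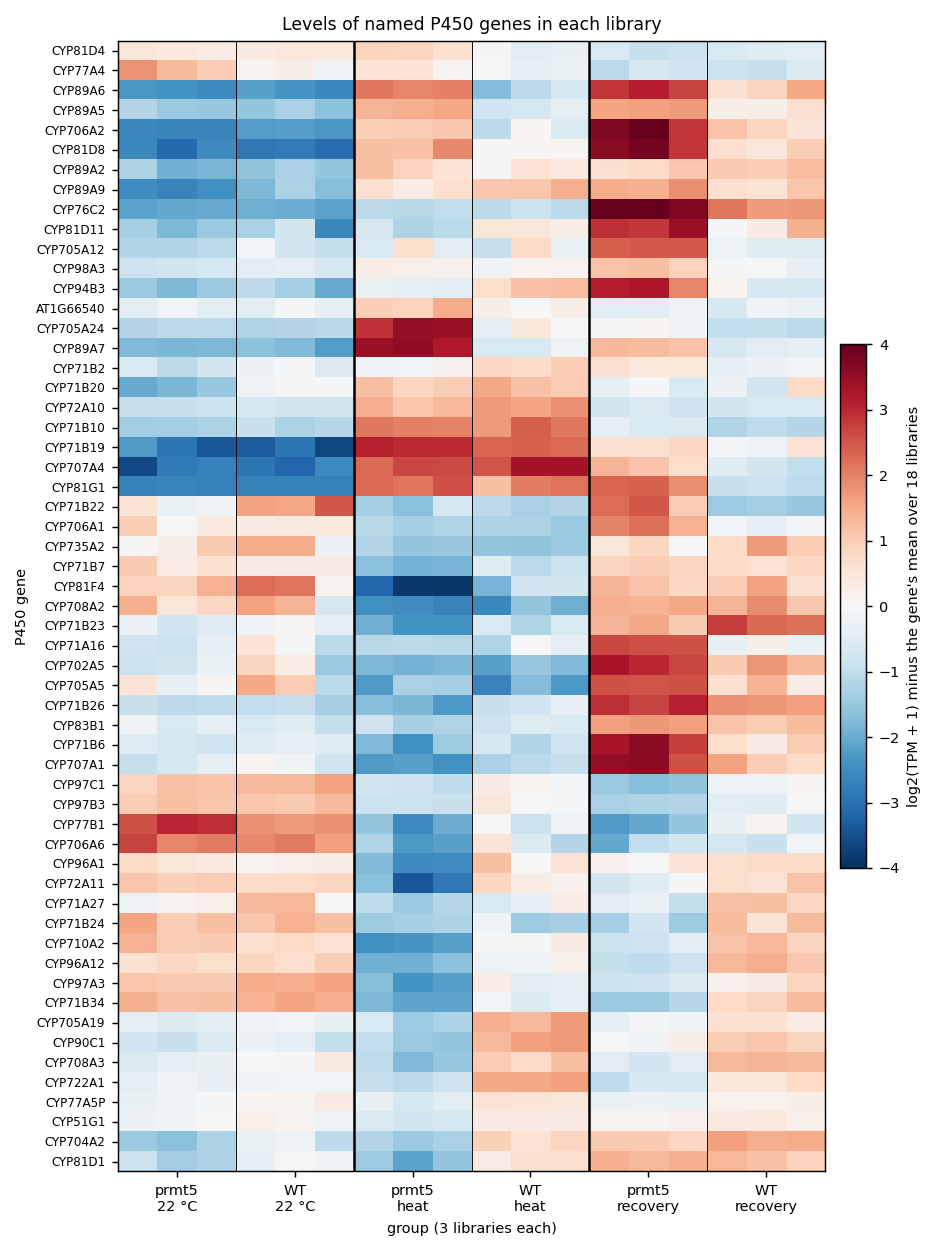
Level of each named P450 gene (rows) in each of the 18 libraries (columns, 3 per group, prmt5 left of WT within 22 °C, heat and recovery), as log2(TPM + 1) minus the gene's mean over the 18 libraries, red above and blue below the mean. CYP707A4, CYP71B19 and CYP81G1 are red in all 6 heat libraries, CYP76C2 and CYP706A2 are reddest in prmt5 at recovery, and CYP77B1 and the CYP97 genes are red at 22 °C; rows are ordered by similarity.

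With heat, the genotypes parted in P450 genes as they did in all tested genes. At 22 °C they had differed in 10 of 150 members (6.67%, against 14.9% of all tested genes). At heat prmt5 was higher than WT in 18 members and lower in 88, with 44 that did not pass (70.7% were called). Over all tested genes, 19.9% were higher and 48.3% lower in prmt5 (68.2% were called), and the libraries did not overlap in 72.6%. The median difference was -0.69 over the members against -0.34 over all genes. With quantile normalization 28 members were higher and 58 lower. The heat responses themselves differed in 80 members: prmt5 responded more positively in 15 and more negatively in 65, against 18% and 33.3% of all tested genes (51.3% were called). With quantile normalization these were 23 and 47.

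The members that were higher in prmt5 at heat were led by CYP89 genes. Of the 5 tested genes numbered CYP89, 4 were higher in prmt5 at heat and 1 was lower. AT2G12190, a near-identical copy without a CYP number, is not counted here and is described with the copies below. CYP89A7 had 50.9, 54.7 and 43.0 TPM in prmt5 at heat, against 2.11, 2.15 and 3.14 TPM in WT at heat. At 22 °C it had 0.4, 0.35 and 0.36 TPM in prmt5 and 0.54, 0.41 and 0 TPM in WT. The gene rose in both genotypes, and its response was larger in prmt5 by 3.79 ± 0.23 on the log2 scale (adjusted p = 3.8e-08). Its neighbour CYP89A6 had 27.6, 24.8 and 25.8 TPM in prmt5 at heat, against 1.01, 2.20 and 3.05 TPM in WT at heat (log2 difference 3.19 ± 0.24, adjusted p = 2.8e-08). CYP89A5 had 319, 339 and 361 TPM in prmt5 at heat, against 70.3, 77.3 and 93.8 TPM in WT at heat (log2 difference 2.07 ± 0.13, adjusted p = 6.7e-09). All 3 genes separated the genotypes at heat without overlap. CYP705A24 had 16.6, 25.2 and 24.8 TPM in prmt5 at heat, against 0.85, 2.22 and 1.4 TPM in WT at heat, and 0.11 ± 0.0436 and 0.06 ± 0.03 TPM at 22 °C (SD, n = 3). The heat rise of this CYP705A gene was larger in prmt5 by 3.17 ± 0.27 (adjusted p = 7.1e-07).

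Members that were lower in prmt5 at heat included CYP72A11, CYP710A2 and CYP96A1. CYP72A11 had 10.5, 2.49 and 4.07 TPM in prmt5 at heat, against 65.3, 43.7 and 40.6 TPM in WT at heat. At 22 °C the levels were 78.5, 69.7 and 73.2 TPM in prmt5 and 60.2, 63.1 and 65.5 TPM in WT. It fell in prmt5 (log2 -3.67 ± 0.32) and did not pass in WT (-0.36 ± 0.32, adjusted p = 0.31), and the difference of the responses was -3.31 ± 0.45 (adjusted p = 2.8e-05). CYP710A2, a C-22 sterol desaturase, had 1.73, 1.90 and 2.30 TPM in prmt5 at heat, against 13.5, 13.0 and 17.4 TPM in WT at heat. Its fall was steeper in prmt5 by -2.84 ± 0.22 (adjusted p = 2.9e-07). CYP96A1 had 0.85, 0.1 and 0.12 TPM in prmt5 at heat, against 13.4, 5.30 and 8.38 TPM in WT at heat, without overlap (log2 difference -2.85 ± 0.25). All 8 tested CYP72 members were lower in prmt5 at heat, but 5 passed with median-ratio scaling and 4 with quantile normalization, which turned CYP72A7 and CYP72A10 to differences of 0.14 and 0.28. All 5 tested CYP96 members were lower in prmt5 at heat as deposited and with both scalings. Over all tested genes the share lower in prmt5 at heat was 48.3% as deposited.

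**Figure D3:**
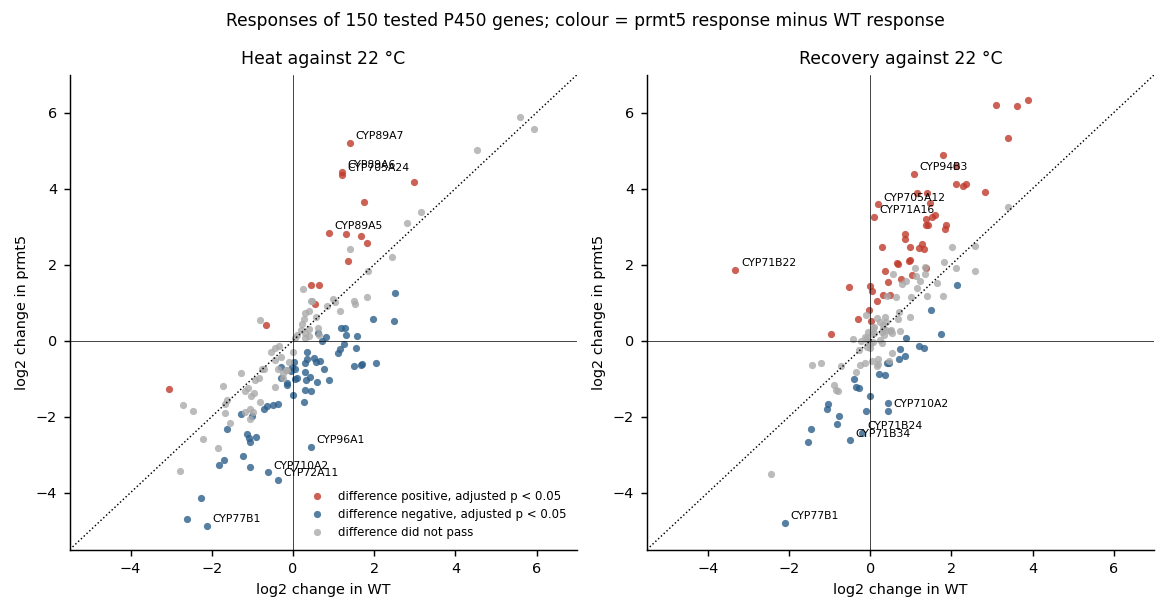
Log2 change in prmt5 (y axis) against log2 change in WT (x axis) of the 150 tested P450 genes, for heat (left) and recovery (right) against 22 °C; the dotted line marks equal change, and red or blue points are genes whose response was more positive or more negative in prmt5 at an adjusted p under 0.05. At heat 15 genes are red and 65 blue, and at recovery 50 are red and 29 blue.

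A day after the heat, P450 genes had risen against 22 °C in shares near those of all genes, in both genotypes. In prmt5 79 members rose and 30 fell against 22 °C (41 did not pass), and in WT 75 rose and 19 fell (56 did not pass). Of all tested genes 53.4% rose and 24.7% fell in prmt5 (78.0% were called), and 49.8% rose and 17.3% fell in WT (67.1% were called). The members' median was 0.58 in prmt5 and 0.43 in WT, against 0.45 and 0.35 over all genes. The split depended on the scaling: median-ratio scaling gave 71 up and 46 down in prmt5 and 54 up and 31 down in WT, and quantile normalization 67 and 50, and 51 and 38. Taking the genotypes together, 60 members (40.0%) rose in both and 14 (9.33%) fell in both, against 41.7% and 14.8% of all tested genes.

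CYP76C2, which oxidises linalool, had the largest rise of both genotypes at recovery on the log2 scale. It had 110.0, 127 and 65.2 TPM at recovery in prmt5, against 0.16, 0.23 and 0.25 TPM at 22 °C. In WT it had 21.4, 15.6 and 15.8 TPM at recovery, against 0.31, 0.27 and 0.15 TPM at 22 °C. Its log2 change was 6.34 ± 0.19 in prmt5 and 3.89 ± 0.19 in WT, and the difference of the responses was 2.45 ± 0.27 (adjusted p = 7.9e-06). CYP81D8 reached 256, 296 and 153 TPM at recovery in prmt5, and 32.7, 28.01 and 40.2 TPM in WT. CYP81D11, another gene known to respond to foreign chemicals, had 381, 361 and 543 TPM at recovery in prmt5, against 19.4, 13.7 and 17.1 TPM at 22 °C. It had 48.4, 63.0 and 135 TPM at recovery in WT, against 19.4, 29.1 and 7.42 TPM at 22 °C. Both CYP81D genes rose in both genotypes and more so in prmt5 (difference of responses 2.56 ± 0.34 for CYP81D8 and 2.46 ± 0.56 for CYP81D11, adjusted p = 3.1e-05 and 0.0021). Without WT library 3 at recovery, the highest of its group in CYP81D11, the difference for that gene was 2.89 (adjusted p = 0.00046). In prmt5 library 3 at recovery CYP76C2, CYP81D8, CYP706A2, CYP94B3, CYP707A1 and CYP71B6 were lowest of the 3 libraries while CYP81D11 was highest, and each still lay above all 3 WT recovery libraries. Without that library 78 members rose and 31 fell in prmt5.

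Of 8 genes listed as responding to stress and foreign chemicals, 7 were tested, and all 7 rose at recovery in both genotypes (in WT 6 with median-ratio scaling). At heat, 4 of the 7 rose and 2 fell in prmt5, and 7 rose in WT, against 5 with median-ratio scaling and 4 with quantile normalization. Of all tested genes, 41.7% rose at recovery in both genotypes. At heat 45.5% of all tested genes rose and 36.0% fell in prmt5, and 49.8% rose in WT. The list was drawn up from known responses, with results of these libraries known, and is not independent evidence.

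From heat to recovery, P450 genes moved upward in the main. In prmt5 98 members were higher at recovery than at heat and 18 lower (43.7% and 28.7% of all tested genes, 72.4% called), and in WT 66 were higher and 33 lower (31.2% and 33.7%, 64.9% called). The members' median change was 1.00 in prmt5 and 0.36 in WT, against 0.21 and -0.03 over all genes. CYP71B26 had 259.6, 223 and 290.1 TPM at recovery in prmt5, against 9.37, 8.49 and 5.84 TPM at heat. In WT it had 120.0, 115 and 106 TPM at recovery, against 17.5, 18.9 and 26.1 TPM at heat, and it was higher at recovery in both (log2 4.87 ± 0.17 in prmt5 and 2.41 ± 0.17 in WT). The change from heat to recovery was more positive in prmt5 than in WT for 78 members and more negative for 10 (35.1% and 14.0% of all tested genes, 49.1% called), and with quantile normalization for 51 and 19.

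CYP707A4 and CYP71B19, the leading heat genes, were lower at recovery than at heat in both genotypes. For CYP707A4 the recovery libraries held 56.4, 48.8 and 35.5 TPM in prmt5 and 14.9, 12.5 and 10.36 TPM in WT. The log2 change from heat was -1.46 ± 0.27 in prmt5 and -3.81 ± 0.27 in WT. CYP81G1 stayed at 31.5, 32.7 and 22.7 TPM at recovery in prmt5 (log2 change from heat -0.14 ± 0.21, adjusted p = 0.54), and was 2.52, 2.58 and 2.22 TPM in WT (-2.74 ± 0.21, adjusted p = 1.6e-08). The genotypes overlapped in CYP81G1 at heat, where the difference (0.51 ± 0.21, adjusted p = 0.038) lost its call under 6 alternatives (adjusted p = 0.056 to 0.26, the highest without WT library 1 at heat), and did not overlap at recovery.

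Between the genotypes at recovery, 53 members were higher in prmt5 and 40 lower, with 57 that did not pass (27.8% and 31.9% of all tested genes, 59.7% called, and no overlap of libraries in 68.3%). The median difference was -0.05 over the members and -0.04 over all genes. Of the 150 tested members, 56 (37.3%) had their highest group mean in prmt5 at recovery, against 22.7% of all tested genes. The recovery responses against 22 °C were more positive in prmt5 in 50 members and more negative in 29 (26.1% and 20.1% of all tested genes, 46.2% called).

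The largest log2 difference between the genotypes at recovery was that of CYP71B22. The gene had 13.9, 16.8 and 5.41 TPM in prmt5 at recovery, against 0.15, 0.24 and 0.11 TPM in WT at recovery. At 22 °C it had 3.65, 1.65 and 1.88 TPM in prmt5 and 8.64, 8.23 and 16.7 TPM in WT, so the order of the genotypes was turned. It rose against 22 °C in prmt5 (log2 1.86 ± 0.36) and fell in WT (-3.32 ± 0.36), and the responses differed by 5.18 ± 0.51 (adjusted p = 3.1e-06). CYP71B6 had 542, 685 and 378 TPM in prmt5 at recovery, against 90.8, 69.3 and 111 TPM in WT at recovery (log2 difference 2.54 ± 0.24, adjusted p = 6e-07). CYP705A12 had 13.0, 13.9 and 13.7 TPM in prmt5 at recovery, against 1.33, 0.92 and 0.9 TPM in WT at recovery. CYP71A16, its neighbour in the cluster that makes marneral-derived triterpenes, had 17.9, 16.5 and 16.2 TPM in prmt5 at recovery, against 1.39, 2.45 and 1.45 TPM in WT at recovery. Both genes of that cluster rose against 22 °C in prmt5 (log2 3.59 ± 0.37 and 3.26 ± 0.34) and did not pass in WT (adjusted p = 0.66 and 0.81), and both differences of the responses passed (adjusted p = 0.00012 and 0.0001).

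Members that were lower in prmt5 at recovery included CYP71B34, CYP96A12, CYP708A3, CYP710A2 and CYP71A27. CYP71B34 had 2.85, 2.91 and 3.94 TPM in prmt5 at recovery, against 17.8, 19.1 and 25.0 TPM in WT at recovery (log2 difference -2.35 ± 0.15). CYP708A3 had 11.3, 8.83 and 11.4 TPM in prmt5 at recovery, against 40.3, 41.7 and 39.7 TPM in WT at recovery (log2 difference -1.86 ± 0.17). Neither pair of groups overlapped. CYP710A2 fell below its 22 °C level in prmt5 (-1.85 ± 0.15), and the responses differed by -2.28 ± 0.22 (adjusted p = 2.4e-06).

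Without heat the genotypes differed in few members. At 22 °C 2 members were higher in prmt5 and 8 lower, of 150 (3.64% and 11.3% of all tested genes, 14.9% called, and no overlap of libraries in 31.3%), and 6 and 6 with either scaling. The higher ones were CYP77B1 and CYP77A4, an epoxidase of fatty acids. CYP77A4 had 8.54, 5.83 and 4.61 TPM in prmt5 at 22 °C, against 2.01, 2.22 and 1.4 TPM in WT at 22 °C (log2 difference 1.32 ± 0.21, adjusted p = 0.00098). The lower ones were CYP71B2, CYP71B13, CYP71B20, CYP71B22, CYP77A5P, CYP81D1, CYP89A9 and CYP704A2. CYP71B20 had 5.17, 6.07 and 7.85 TPM in prmt5 at 22 °C, against 21.1, 25.1 and 22.9 TPM in WT at 22 °C (log2 difference -1.72 ± 0.29, adjusted p = 0.0013). CYP89A9 had 2.11, 1.68 and 2.18 TPM in prmt5 at 22 °C, against 3.95, 6.20 and 4.30 TPM in WT at 22 °C (adjusted p = 0.003). These 3 genes separated the genotypes without overlap and kept the call under the alternatives in which they were tested (CYP77A4 is below the minimum of 5 TPM). Of the other lower ones, CYP71B2, CYP71B13, CYP71B22, CYP77A5P and CYP704A2 lost the call when only these 2 groups were fitted (adjusted p = 0.051 to 0.17), CYP71B2 and CYP77A5P with both scalings as well (0.11 to 0.19). CYP77B1 lost its call with a pseudocount of 0.1 (adjusted p = 0.1) and without prmt5 library 2, WT library 1 or WT library 2 (0.064 to 0.089). The count also rested on single libraries: it was 17 without prmt5 library 3 and 27 (2 higher, 25 lower) without WT library 3, the one with the low root marker sum.

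Genes of hormone metabolism took different directions within a pathway. The 4 CYP707A genes hydroxylate abscisic acid, and each had its own course. CYP707A1 had 0.41, 0.51 and 0.27 TPM at heat in prmt5, against 2.55, 3.19 and 4.23 TPM at 22 °C, and 1.76, 2.28 and 2.56 TPM at heat in WT, against 6.39, 5.05 and 2.93 TPM at 22 °C. At recovery it had 76.7, 79.7 and 38.3 TPM in prmt5 and 19.6, 12.5 and 10.6 TPM in WT. It was lower at heat and higher at recovery than at 22 °C in both genotypes, though the WT fall at heat (-0.82 ± 0.29) missed the threshold in 4 alternatives (adjusted p = 0.051 to 0.087). Its recovery response was larger in prmt5 by 2.47 ± 0.40 (adjusted p = 0.00018). CYP707A2 fell at heat in both genotypes (log2 -1.46 ± 0.24 in prmt5 and -1.04 ± 0.24 in WT) and was not called at recovery. CYP707A3 did not pass at heat, and at recovery rose in prmt5 (2.04 ± 0.23) and in WT (0.66 ± 0.23), the WT call being lost in 5 alternatives (adjusted p = 0.064 to 0.35, and 0.12 without WT library 3 at 22 °C).

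**Figure D4:**
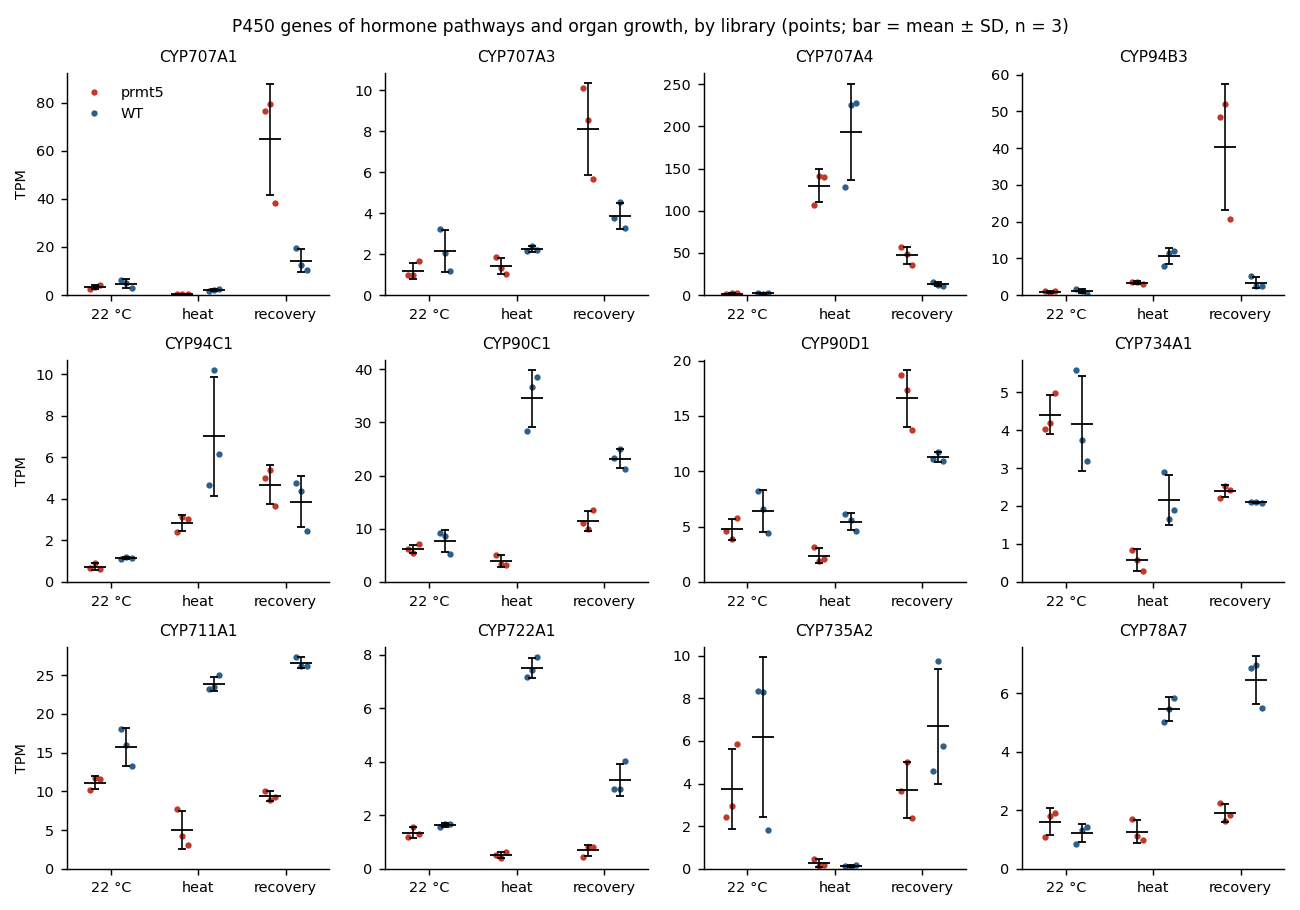
TPM (y axes, each starting at 0) of 12 P450 genes of hormone pathways and organ growth in the 18 libraries at 22 °C, heat and recovery, prmt5 in red left of WT in blue; points are libraries and bars the mean ± SD (n = 3). CYP707A4 is high at heat and CYP707A1 and CYP94B3 at recovery in prmt5, and CYP90C1, CYP722A1 and CYP78A7 are high at heat in WT and not in prmt5. In WT, CYP78A7 averages 5.44 TPM at heat and 6.44 TPM at recovery, and CYP90C1 34.5 and 23.2 TPM.

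In brassinosteroid synthesis, CYP90C1 separated the genotypes most. This C-23 hydroxylase had 5.14, 3.30 and 3.13 TPM at heat in prmt5, against 6.10, 5.47 and 7.09 TPM at 22 °C. In WT it had 28.4, 36.6 and 38.5 TPM at heat, against 9.26, 8.58 and 5.28 TPM at 22 °C. It fell in prmt5 (-0.59 ± 0.19, adjusted p = 0.011, and 0.051 without prmt5 library 3 at heat) and rose in WT (2.05 ± 0.19), and the responses differed by -2.64 ± 0.27 (adjusted p = 3e-06). At recovery it was still lower in prmt5 than in WT (-0.96 ± 0.19, adjusted p = 0.00055). Of the 4 tested synthesis genes, 3 fell in prmt5 at heat and 3 rose in WT, though with median-ratio scaling only CYP90C1 kept its rise in WT. Of all tested genes, 36.0% fell in prmt5 and 49.8% rose in WT at heat, and 23.0% fell in both genotypes. Both genes of brassinosteroid inactivation, CYP734A1 and CYP72C1, fell at heat in both genotypes (CYP734A1 by -1.79 in prmt5 and -0.71 in WT on the log2 scale).

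Of the 3 tested genes of jasmonate turnover, 2 rose at heat in prmt5 and 3 in WT (2 with quantile normalization). The shares that rose over all tested genes were 45.5% and 49.8%. CYP94B3, which hydroxylates jasmonoyl-isoleucine, had 3.66, 3.44 and 3.05 TPM at heat in prmt5, against 0.99, 0.59 and 0.97 TPM at 22 °C, and 8.02, 11.6 and 11.99 TPM at heat in WT, against 1.69, 1.17 and 0.39 TPM at 22 °C. At recovery it had 48.5, 51.9 and 20.7 TPM in prmt5 and 5.20, 2.56 and 2.40 TPM in WT. It was lower in prmt5 than in WT at heat (-1.38 ± 0.32) and higher at recovery (3.19 ± 0.32), and the heat difference lost its call with quantile normalization. CYP94C1, which oxidises the hydroxylated hormone further, rose at heat in both (1.14 ± 0.23 in prmt5 and 1.83 ± 0.23 in WT).

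The 2 strigolactone genes differed between the genotypes. CYP711A1 (MAX1), which converts carlactone to carlactonoic acid, had 7.78, 4.27 and 3.05 TPM at heat in prmt5, against 10.1, 11.8 and 11.5 TPM at 22 °C. In WT it had 23.2, 23.4 and 25.0 TPM at heat, against 18.03, 16.0 and 13.2 TPM at 22 °C. It fell in prmt5 (-1.08 ± 0.19), and its WT rise (0.58 ± 0.19) did not hold without WT library 3 at 22 °C (adjusted p = 0.061) or with either scaling. CYP722A1, which acts on carlactonoic acid, had 0.53, 0.4 and 0.63 TPM at heat in prmt5, against 1.19, 1.58 and 1.29 TPM at 22 °C. In WT it had 7.17, 7.43 and 7.92 TPM at heat, against 1.56, 1.69 and 1.67 TPM at 22 °C, so that it fell in prmt5 (-0.63 ± 0.14) and rose in WT (1.69 ± 0.14). Both genes were lower in prmt5 than in WT at heat and at recovery (CYP711A1 by -2.12 and -1.41 on the log2 scale, CYP722A1 by -2.49 and -1.36). The organ growth gene CYP78A7 was lower in prmt5 too, with 1.71, 1.11 and 0.97 TPM in prmt5 at heat, against 5.02, 5.47 and 5.84 TPM in WT at heat (log2 difference -1.52 ± 0.17). All 5 tested CYP78A genes, relatives of the organ growth regulator KLUH (CYP78A5), were lower in prmt5 at heat, and 2 of them with quantile normalization. As deposited, 48.3% of all tested genes were lower in prmt5 at heat.

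CYP735A2, which hydroxylates cytokinins and is known mainly from roots, fell at heat to 0.48, 0.13 and 0.17 TPM in prmt5, against 2.41, 2.94 and 5.87 TPM at 22 °C. In WT it had 0.11, 0.09 and 0.19 TPM at heat, against 8.36, 8.30 and 1.84 TPM at 22 °C, where library 3 with the low root sum gave the lowest value. The thalianol genes CYP708A2 and CYP705A5 and the indole gene CYP81F4 were lowest in that library too (249, 231 and 56.2 TPM for CYP81F4 at 22 °C in WT). Root markers fell with them at heat, 11 of 17 tested in prmt5 and 12 of 17 in WT, and their part in these results was not tested. Of all tested genes, 36.0% fell at heat in prmt5 and 25.7% in WT. At recovery 1 of the 17 tested root markers was higher in prmt5 than in WT (MYB36) and 6 were lower, against 27.8% and 31.9% of all tested genes. The root sum without NRT2.1, a nitrate transporter that had 1.45 to 1.59 TPM in prmt5 and 17.04 to 22.4 TPM in WT at recovery, was 84.6, 76.41 and 73.21 TPM in prmt5 and 105.2, 132.9 and 80.62 TPM in WT, and the genotypes overlapped in it. CYP705A5 was higher in prmt5 at recovery, with 49.5, 48.2 and 49.4 TPM, against 12.5, 21.4 and 9.48 TPM in WT (log2 difference 1.77 ± 0.51, adjusted p = 0.0073).

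Carotenoid hydroxylases were highest at 22 °C. All 3 CYP97 genes, which place hydroxyl groups on carotenoid rings on the way to lutein, fell at heat and at recovery against 22 °C in both genotypes, and all 3 were lower in prmt5 than in WT in both conditions (at heat 2 of 3 with quantile normalization). Of all tested genes, 23.0% fell in both genotypes at heat and 14.8% at recovery. Those lower in prmt5 than in WT made up 48.3% at heat and 31.9% at recovery. CYP97A3 had 10.1, 5.90 and 6.86 TPM at heat in prmt5, against 76.2, 73.6 and 72.9 TPM at 22 °C. In WT it had 43.1, 25.1 and 26.8 TPM at heat, against 99.97, 96.7 and 109.6 TPM at 22 °C. CYP97C1 had 1.99, 1.62 and 1.76 TPM at recovery in prmt5, against 14.4, 18.2 and 17.5 TPM at 22 °C, and 6.26, 6.38 and 7.87 TPM at recovery in WT, against 19.7, 19.9 and 24.9 TPM at 22 °C. The falls were -3.16 ± 0.21 in prmt5 and -1.70 ± 0.21 in WT for CYP97A3 at heat, and -2.66 ± 0.14 and -1.52 ± 0.14 for CYP97C1 at recovery. Without WT library 1 at heat, the one with the high leaf sum, the WT fall of CYP97A3 was -1.93. Of the 5 leaf markers, 4 fell at heat in each genotype, and at recovery 4 fell in prmt5 and 5 in WT. Over all tested genes, 36.0% fell at heat and 24.7% at recovery in prmt5, and 25.7% and 17.3% in WT. The part of the leaf markers in this result was not tested.

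The tested indole glucosinolate genes among the members fell at heat in prmt5 and several rose at recovery. CYP83B1 had 653, 701 and 653 TPM at recovery in prmt5, against 187, 137 and 161 TPM at 22 °C. In WT it had 458, 422 and 499.8 TPM at recovery, against 135, 148 and 107 TPM at 22 °C. It rose in both (log2 2.05 ± 0.15 in prmt5 and 1.83 ± 0.15 in WT), and the difference of these responses did not pass (adjusted p = 0.4). CYP81F2, which hydroxylates the indole ring, had 55.0, 78.4 and 31.1 TPM at recovery in prmt5 and 26.0, 16.2 and 17.1 TPM in WT, against 4.46 ± 1.42 and 5.79 ± 0.715 TPM at 22 °C (SD, n = 3). Of the 5 tested genes of the list, 5 fell at heat in prmt5 and 3 in WT, and 3 rose at recovery in each genotype (2 in prmt5 with quantile normalization, 2 in WT with median-ratio scaling). Over all tested genes, 36.0% fell at heat in prmt5 and 25.7% in WT, and 53.4% and 49.8% rose at recovery.

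The suberin genes rose at recovery, and most cutin genes fell. CYP86A1 and CYP86B1, fatty acid hydroxylases of suberin, rose at recovery in both genotypes (in WT the call of CYP86B1 was lost with both scalings, adjusted p = 0.058 and 0.073). CYP86A1 had 109, 103 and 99.7 TPM at recovery in prmt5, against 9.39, 11.4 and 10.8 TPM at 22 °C, and 20.9, 31.8 and 28.5 TPM at recovery in WT, against 18.9, 12.1 and 3.70 TPM at 22 °C. It was higher in prmt5 than in WT at recovery (1.92 ± 0.37, adjusted p = 0.0004). Of the other 5 tested genes of the cutin, suberin and wax list, all 5 fell in prmt5 at heat and at recovery, while 3 fell in WT at heat and 4 at recovery. Over all tested genes, 36.0% fell at heat and 24.7% at recovery in prmt5, and 25.7% and 17.3% in WT. The cutin gene CYP86A2 averaged 38.6 ± 2.42 TPM in prmt5 and 65.6 ± 3.04 TPM in WT at heat, against 82.2 ± 26.7 and 63.4 ± 1.29 TPM at 22 °C (SD, n = 3), and did not pass in WT at heat or at recovery (adjusted p = 0.79 and 0.067). CYP86A4, CYP86A8 and CYP77A6 fell in both genotypes at heat and at recovery (CYP86A8 in WT at heat not without WT library 3 at 22 °C, adjusted p = 0.069; CYP77A6 at heat by -3.04 in prmt5 and -1.23 in WT on the log2 scale). In lignin precursor synthesis, CYP98A3 had 196, 205 and 166 TPM at recovery in prmt5, against 49.0, 52.5 and 54.0 TPM at 22 °C, and 83.6, 87.8 and 70.3 TPM at recovery in WT, against 65.8, 68.2 and 54.2 TPM at 22 °C. Its recovery response was larger in prmt5 by 1.48 ± 0.16 (adjusted p = 6.4e-06), and its small WT rise (0.36 ± 0.11) turned to -0.03 with median-ratio scaling. Of the sterol genes, CYP710A1, the relative of CYP710A2, rose at heat by 1.82 in prmt5 and 1.85 in WT, and CYP51G1, the sterol 14-demethylase, fell at heat in prmt5 (-0.58 ± 0.10) and rose in WT as deposited (0.30 ± 0.10), a rise that turned to -0.10 with median-ratio scaling. Among terpenoid genes, CYP82G1, which makes volatile homoterpenes in leaves, had 3.38, 2.25 and 2.74 TPM at recovery in prmt5 and 5.14, 2.04 and 3.37 TPM in WT, and was listed at 0 in 2 of 3 prmt5 and all 3 WT libraries at 22 °C.

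P450 genes lie in clusters, and a number of these held both rising and falling members. No like count was made for runs of other genes. The counts below therefore describe these runs and do not show a trait particular to P450 clusters. With up to 2 other genes allowed in between, 139 of the 237 members stood in 40 runs of 2 or more, the longest of 9 members. In 20 runs at least 2 members were tested. At heat, 11 of these 20 held both rising and falling members in prmt5 and 10 did in WT. At recovery against 22 °C this was so for 10 and 7. At recovery against heat 5 runs in prmt5 and 7 in WT held both directions, and in 8 runs in prmt5 and 2 in WT all tested members were higher at recovery. Between the genotypes at heat 3 runs held both directions, 5 were lower in prmt5 in all tested members and 1 was higher. In the run from CYP71B16 to CYP71B24 on chromosome 3, CYP71B19 and CYP71B20 rose at heat in both genotypes while CYP71B22, CYP71B23 and CYP71B24 fell (CYP71B23 in WT not without WT library 2 at 22 °C or WT library 2 at heat, adjusted p = 0.056 and 0.080). In the run from CYP81H1 to CYP81F1, CYP81D8 rose and CYP81F4 fell at heat in both genotypes. The 4 genes of the run from CYP89A2 to CYP89A5 all rose at heat and at recovery in both genotypes. With CYP89A9, which lies elsewhere, all 5 tested genes numbered CYP89 rose in these 4 comparisons, as deposited and with both scalings. AT2G12190, a near-identical copy of CYP89A5 that carries no CYP number, is not counted among the 5. Its change at heat in prmt5 did not pass. Of all tested genes, 39.4% rose in both genotypes at heat and 41.7% at recovery.

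**Figure D5:**
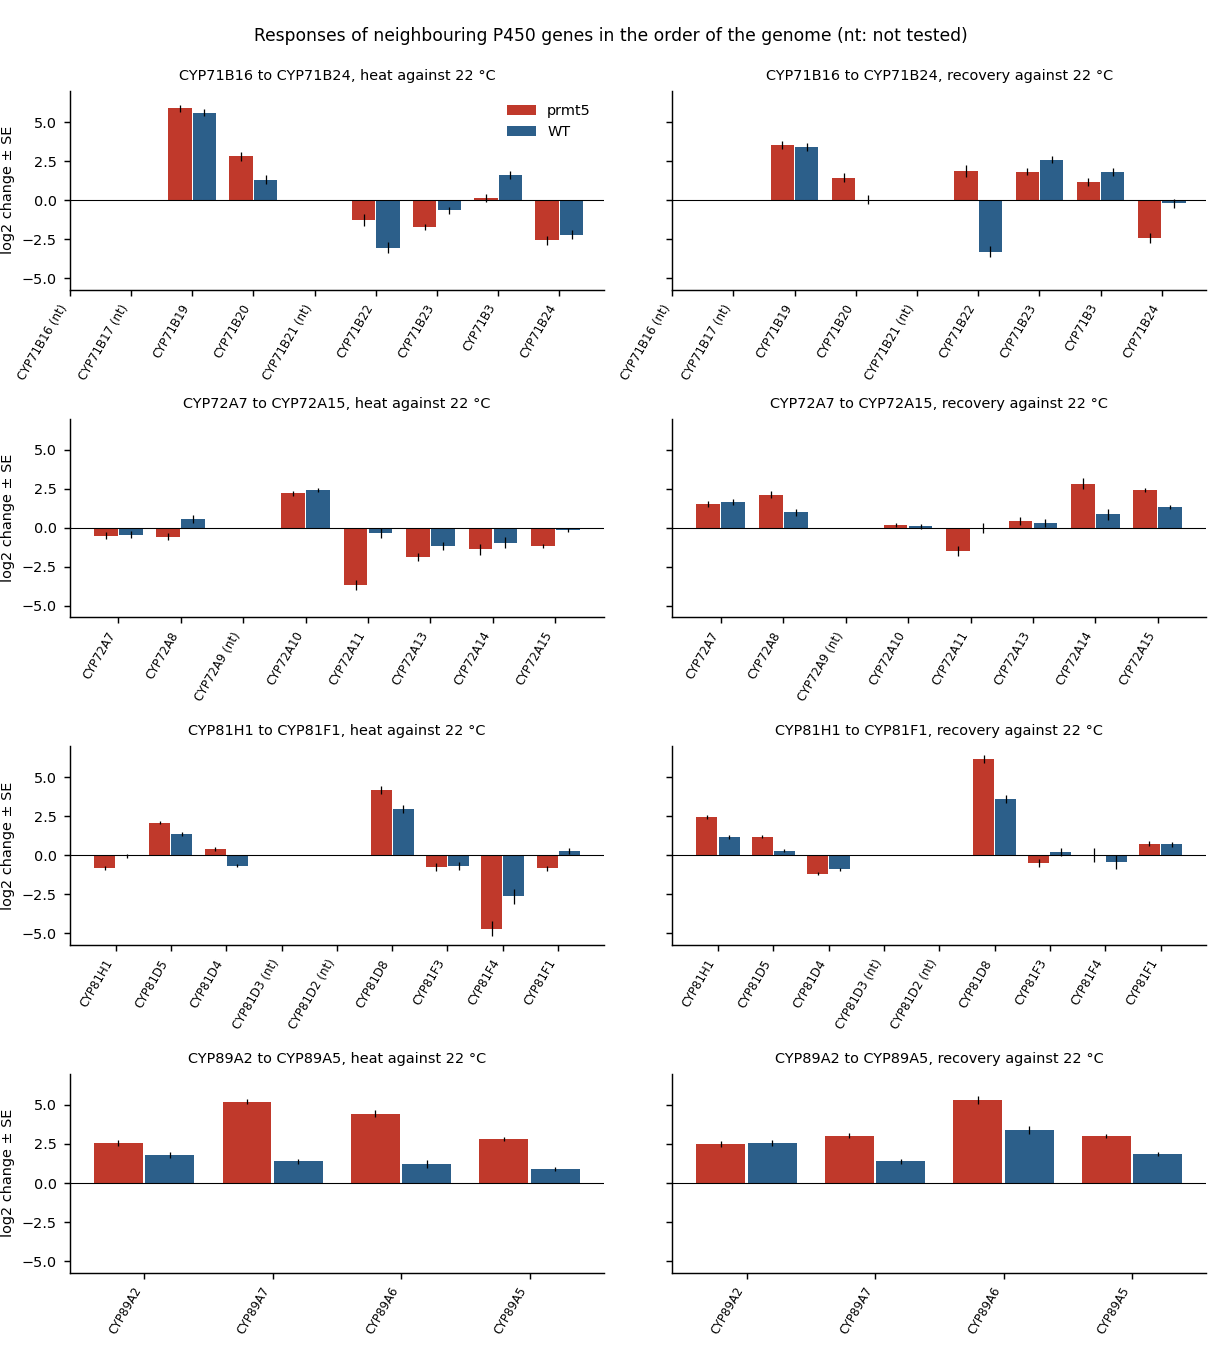
Log2 change ± SE (y axis) of the members of 4 runs of neighbouring P450 genes, in the order of the genome (x axis), at heat (left) and recovery (right) against 22 °C, with prmt5 bars in red left of WT bars in blue; genes marked nt were not tested. Bars of both signs stand side by side in the CYP71B, CYP72A and CYP81 runs at heat, and all CYP89 bars point upward.

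Near-identical copies need care, since reads may be shared between them. Among the members 11 pairs had transcripts with at least 90% identity over at least 80% of the shorter one, involving 19 genes, and how the authors' counting split reads between them is not given in the sources used here. CYP706A1 and CYP706A2 were 96.5% identical over 1662 aligned bases. CYP706A1 had 42.9, 37.2 and 40.6 TPM at heat in prmt5, against 189.8, 95.8 and 123 TPM at 22 °C. CYP706A2 had 19.6, 20.7 and 21.5 TPM at heat in prmt5, against 0.8, 0.72 and 0.67 TPM at 22 °C. In WT CYP706A1 fell at heat as well (-1.69 ± 0.21), and CYP706A2 rose (1.74 ± 0.28). The 2 copies thus moved in opposite directions at heat in both genotypes, and at recovery in prmt5 both were high, CYP706A1 with 379.6, 443 and 248 TPM and CYP706A2 with 137, 185 and 77.4 TPM. Their upstream sequences shown above shared 49.3% of aligned positions, within the 47.7% to 54.0% of the other 13 pairs among the 6, and that of CYP706A2 held a GAANNTTC match 110 to 103 bases and a TGACG match 186 to 182 bases upstream, where that of CYP706A1 held none. CYP71B19 and CYP71B20 (94.9% identical over 1730 bases) shared 67.1% of aligned upstream positions, with a GAANNTTC match 35 to 28 bases upstream of CYP71B20. CYP71B20 rose less at heat, by 2.80 in prmt5 and 1.31 in WT, and had 73.1, 55.3 and 49.7 TPM at heat in WT, against 21.1, 25.1 and 22.9 TPM at 22 °C. CYP89A5 and CYP89A6 were 93.9% identical, and the member AT2G12190 was 94.4% identical to CYP89A5 and 93.0% to CYP89A6. The values of these single genes, among them those given above, carry the same uncertainty. Unlike CYP89A5 and CYP89A6, AT2G12190 was called lower in prmt5 than in WT at heat (log2 difference -0.62, adjusted p = 0.035). With quantile normalization its difference was 0.05 and did not pass.

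Electron donors and scaffolds of P450 enzymes moved in both directions at heat. ATR1 and ATR2, the reductases that hand electrons to P450 enzymes, rose at heat in both genotypes (ATR1 by 1.06 in prmt5 and 1.35 in WT, ATR2 by 1.07 and 0.56 on the log2 scale). At recovery ATR2 averaged 302 ± 73.7 TPM in prmt5 and 106.5 ± 2.63 TPM in WT, against 50.7 ± 2.91 and 63.0 ± 3.83 TPM at 22 °C (SD, n = 3). It was higher in prmt5 than in WT by 1.47 ± 0.13 (adjusted p = 2.9e-07). MSBP2, a membrane scaffold for lignin P450 enzymes, averaged 469 ± 30.8 TPM in prmt5 and 168.5 ± 18.2 TPM in WT at heat, against 71.3 ± 6.19 and 69.8 ± 4.24 TPM at 22 °C (SD, n = 3). The log2 difference between the genotypes at heat was 1.47 ± 0.11 (adjusted p = 2.2e-08). Cytochrome b5 genes went both ways: CB5-D fell at heat by 2.91 in prmt5 and by 1.52 in WT on the log2 scale, and CB5-E rose by 0.89 in prmt5 and did not pass in WT. Of the 11 partners and scaffolds, 8 rose and 3 fell at heat in prmt5, and 6 rose and 3 fell in WT (11 and 9 called, where 81.5% and 75.5% of all tested genes were). Of 4 genes of haem metabolism, 3 fell at heat in each genotype, among them FC2, a ferrochelatase (log2 -1.98 in prmt5 and -0.97 in WT). Of 14 other enzymes of the same pathways, 1 rose and 11 fell at heat in prmt5, and 4 rose and 6 fell in WT. Beside these lists, 45.5% of all tested genes rose and 36.0% fell in prmt5, and 49.8% rose and 25.7% fell in WT. DWF1, which acts in brassinosteroid synthesis upstream of the CYP90 enzymes, fell by 4.08 in prmt5 and by 1.76 in WT on the log2 scale.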

How the data were processed

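RNA-seq values of 18 seedling libraries were used as deposited: TPM per gene, made by the authors with RSEM against TAIR10, per the submitters' processing notes (no version is given). The 6 columns of group means that the authors deposited differed from the means of the libraries by at most 3.3e-05 TPM and were not used. Annotation (description, Pfam) came from the same table. TPM keep no read counts, so depth is unknown and no count test was run.

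Values were tested as log2(TPM + 1) with limma 3.58.1 in R 4.3.3 (lmFit, contrasts, eBayes with trend) over 21831 genes with a mean of at least 1 TPM. The fit held a mean for each of the 6 groups, which left 12 residual degrees of freedom. P-values were two-sided and adjusted by Benjamini-Hochberg within each of 12 comparisons over all tested genes, and a gene passed at 0.05. An interaction is the response of prmt5 minus that of WT. Members, gene lists and the naming rule were chosen with earlier results of these data known. The text names part of these: per comparison up to 6 highest and 6 lowest changes among called genes with at least 5 TPM in the higher group and no overlap (4 and 4 per interaction), the 10 most abundant members, all members of role lists, and up to 4 of each partner list. Genes in near-identical pairs, neighbouring genes and the remaining 22 °C calls are named beside their counts and were chosen after their values were seen.

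Sequences are from RefSeq, TAIR10.1, used for upstream bases and transcript identity, and all 237 members were matched by locus tag. Alternatives were other pseudocounts (0.1 and 5), a minimum mean of 5 TPM or none, median-ratio scaling, quantile normalization, only the groups compared, a replicate block, robust eBayes and leaving out each library. The procedure was tested on simulated data for the comparison of prmt5 with WT at heat only. There it called 38% of 50 changes of 1.5-fold and 86% of 50 changes of 2-fold in the right direction. It also called 9 of 21631 unchanged genes. In the simulation 21631 of 21831 genes were unchanged, while in the data 68.2% of tested genes were called in this comparison. The adjustment depends on that share, so these rates do not carry over to the calls reported here. A gene that did not pass may still have changed. Replicate numbers in the titles were not taken as pairs, as the closing section shows.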

Additional observations from a re-analysis of the deposited data

Results flagged for a closer look

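Responses of single genes differed between prmt5 and WT by the test of the difference itself, given here as the response of prmt5 minus that of WT on the log2 scale. For heat against 22 °C the most positive differences were those of CYP89A7 (3.79), CYP89A6 (3.23), CYP705A24 (3.17) and CYP89A5 (1.96), and the most negative those of CYP72A11 (-3.31), CYP96A1 (-3.22), CYP710A2 (-2.84) and CYP77B1 (-2.76). For recovery against 22 °C they were those of CYP71B22 (5.18), CYP705A12 (3.39), CYP94B3 (3.32) and CYP71A16 (3.16), and of CYP77B1 (-2.69), CYP710A2 (-2.28), CYP71B24 (-2.22) and CYP71B34 (-2.14). For recovery against heat they were those of CYP94B3 (4.57), CYP81D11 (3.87), CYP71B6 (3.52) and CYP71B22 (3.41), and of CYP705A24 (-2.29), CYP89A7 (-2.14), CYP71B24 (-1.85) and CYP81D4 (-1.35). All 24 passed at an adjusted p under 0.05 (limma). The 3 contrasts share libraries, so a gene named under 2 of them is not independent support.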

How the results depend on the processing

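Counts of called P450 genes changed by less than 1.5 times under the alternatives run, other than with a minimum mean of 5 TPM and, for the genotypes at 22 °C, without single libraries. With the minimum of 5 TPM, 88 members were tested, and calls fell to 80 in prmt5 and 70 in WT at heat, 70 in prmt5 at recovery against 22 °C, and 75 in prmt5 and 65 in WT at recovery against heat, since fewer genes were tested. Leaving out each library in turn gave 113 to 123 calls in prmt5 and 96 to 107 in WT at heat, 105 to 115 and 83 to 97 at recovery against 22 °C, and 113 to 118 and 89 to 102 at recovery against heat. Between the genotypes it gave 7 to 27 calls at 22 °C (27 without WT library 3, 17 without prmt5 library 3), 96 to 107 at heat and 85 to 99 at recovery, and for the interactions 74 to 84 (heat), 71 to 84 (recovery against 22 °C) and 76 to 93 (recovery against heat). The difference in PRMT5 level stayed between -33.11 and -32.44 TPM. Counting only members with a Pfam P450 domain, an alternative chosen after seeing the data, gave 9 calls between the genotypes at 22 °C.

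Over 5 comparisons, 21 calls of single members turned in sign with median-ratio scaling or quantile normalization, and none of these was still called there. They included CYP51G1 with median-ratio scaling in WT at heat (-0.0951) and recovery (-0.0836), CYP98A3 with it in WT at recovery (-0.0287), CYP86A8 between the genotypes at heat with median-ratio scaling (0.1103) and quantile normalization (0.0695), and CYP710A2 with quantile normalization in the interaction of recovery against heat (-0.0525). Both scalings move the median of all genes by more than 0.1 in several comparisons, and the cause was not tested.

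Samples with the same replicate number did not deviate together: of 45 same-number pairs, 8 had a correlation of deviations above 0.1, with a range of -0.195 to 0.189. With the number as a replicate block the counts were 121 in prmt5 and 105 in WT at heat, 108 and 95 at recovery, 116 and 98 at recovery against heat, 11, 105 and 91 between the genotypes at 22 °C, heat and recovery, and 78, 78 and 84 for the interactions. TPM keep no depth, so how far depth limits genes near the filter is unknown.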
